A study of Mus musculus with 32 samples.

Results

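The genes described here encode structural proteins of the sarcomere, the contractile unit of muscle, and of the Z-disc at its ends, with some factors that assemble or turn over these proteins. They were chosen by symbol for the known place of their products, and all 39 were found among the 54838 genes listed. RNA came from 3 hind leg muscles (gastrocnemius, quadriceps and tibialis) of male mice no older than 3 months. Besides wild-type mice, the study used mice homozygous for a knocked-in M743T change of Gne (GNE M743T/M743T), which encodes the key enzyme of sialic acid synthesis and is mutated in GNE myopathy. The submitters call part of these knock-in mice healthy and part of them sick, without the criteria in the labels used here. The wild-type, healthy and sick groups hold 4, 3 and 3 libraries in gastrocnemius and 4, 4 and 3 in both quadriceps and tibialis. All knock-in mice, healthy or sick, carry the change from the germline in every tissue, and whether libraries of different muscles came from 1 mouse is not stated. P-values therefore measure the spread between these libraries.

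In the sarcomere, actin-based thin filaments slide past myosin-based thick filaments. Thin filaments are anchored in the Z-disc by alpha-actinin and capped at the other end by tropomodulins, against which leiomodins lengthen them. Thick filaments are crosslinked in the M-band by myomesins, and titin spans from Z-disc to M-band. Desmin and other intermediate filaments tie Z-discs to each other and to the membrane at costameres, where filamin C and the Xin proteins gather and where strained or damaged sarcomeres are repaired. Several of these proteins have fibre-type isoforms, so that their transcripts also follow the share of fast and slow fibres in a muscle.

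Promoter sequences were looked at because genes of muscle fibres share short motifs before the start of transcription. RefSeq (GRCm38.p6) gave 33 promoters for 29 of the 39 members, and the 250 bases before each start were searched on both strands. The MEF2 motif was in 7 of the 33, and in 2.92% of all 32851 promoters of the table. The CArG box bound by SRF was in 5 of the 33, which belong to Acta1, Actc1, Ldb3 and Myom1, and in 1.47% of all. The E-box CANNTG, which myogenic factors bind, was in 24 of the 33 and in 66.2% of all promoters. The MCAT motif GGAATG was in 6 and the TATA box TATAAA in 3 of the 33, against 12.6% and 12.4% of all. No matches of different motifs overlapped within a member promoter. A match is a run of letters, with no measurement of binding here. The sequences below belong to members that are named in the results and hold a match. They run 5′ to 3′ on the strand of the gene and show the match in capitals. Members without a promoter there, among them Myoz3, Xirp1, Myot, Actn3 and Lmod3, could not be shown. In Myom3 (chr4:135759465-135759714, plus strand), Myoz2 (chr3:123034988-123035237, minus strand) and Xirp2 (chr2:67445752-67446001, plus strand), capitals mark the MEF2 motif, which begins 35, 33 and 74 bases before the start.
Myom3: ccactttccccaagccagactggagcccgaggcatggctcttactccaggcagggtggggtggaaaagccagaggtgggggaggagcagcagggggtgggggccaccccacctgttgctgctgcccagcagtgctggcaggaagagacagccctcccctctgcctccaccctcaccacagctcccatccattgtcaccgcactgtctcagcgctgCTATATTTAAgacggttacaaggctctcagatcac
Myoz2: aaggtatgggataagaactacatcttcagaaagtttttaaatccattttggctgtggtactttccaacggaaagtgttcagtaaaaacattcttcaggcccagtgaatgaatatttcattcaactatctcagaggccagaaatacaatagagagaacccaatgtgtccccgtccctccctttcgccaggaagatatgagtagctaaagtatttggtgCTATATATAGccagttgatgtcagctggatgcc
Xirp2: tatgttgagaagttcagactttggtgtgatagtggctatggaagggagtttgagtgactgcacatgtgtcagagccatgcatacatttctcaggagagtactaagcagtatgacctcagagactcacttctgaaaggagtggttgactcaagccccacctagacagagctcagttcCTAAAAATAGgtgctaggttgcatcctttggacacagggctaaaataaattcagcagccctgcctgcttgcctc
In Flnc (chr6:29433006-29433255, plus strand), capitals mark an MCAT match on the opposite strand, 104 bases before the start, and in Nrap (chr19:56390039-56390288, minus strand) they mark 3 E-boxes.
Flnc: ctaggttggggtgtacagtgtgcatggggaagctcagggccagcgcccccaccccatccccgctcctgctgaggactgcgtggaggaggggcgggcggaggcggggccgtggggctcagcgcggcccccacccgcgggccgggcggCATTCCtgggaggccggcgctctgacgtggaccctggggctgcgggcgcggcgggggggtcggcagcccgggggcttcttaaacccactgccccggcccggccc
Nrap: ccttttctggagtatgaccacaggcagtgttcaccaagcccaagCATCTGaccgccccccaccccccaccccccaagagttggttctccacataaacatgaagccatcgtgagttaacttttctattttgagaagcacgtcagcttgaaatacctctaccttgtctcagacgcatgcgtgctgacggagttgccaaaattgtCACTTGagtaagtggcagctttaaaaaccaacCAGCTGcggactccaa
Distances are from the start RefSeq gives, which for Myoz2 lies 28 bases inside the gene as annotated in GENCODE.

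Total counts per library ran from 7685164 to 42588233, and genes of the mitochondrial genome took 4.79 to 15.5% of them. That share was lower in sick than in wild-type libraries without overlap in quadriceps (4.79 to 6.69 against 7.04 to 10.8%) and tibialis (8.28 to 12.3 against 13.4 to 15.5%), and overlapped in gastrocnemius. Gne itself was read at 7.34 to 14.3 CPM, counts relative to the TMM-scaled library total, in every library, and a change of 1 amino acid need not alter that level. The labelled tissue showed in 10 markers of skeletal fibres, which summed to 97276 to 201221 CPM in every library. Markers of heart muscle summed to 535 CPM at most. Markers of 10 kidney tubule genes summed to 59, 80.1, 73.7 and 63.4 CPM in the wild-type tibialis libraries, to 23.0 in 1 healthy knock-in gastrocnemius library (replicate 2) and to no more than 1.86 in any other. Summed tendon markers were lower in sick than in wild-type libraries without overlap in gastrocnemius (216 to 425 against 596 to 1250.3 CPM) and tibialis (34.6 to 97 against 226 to 797), and so were markers of fibro-adipogenic progenitors in both (559 to 903 against 1010.3 to 1362 and 291 to 537 against 673 to 948). Macrophage markers were higher in sick quadriceps (325 to 464 against 164 to 255 CPM) and erythrocyte markers in sick gastrocnemius (169 to 303 against 78.8 to 162). The sum of satellite cell markers was higher in sick gastrocnemius (141 to 179.7 against 114 to 129 CPM). Over all libraries Itga7 took the largest part of it (59.9 to 143 CPM), and Pax7 was 4.17 CPM at most. Markers of smooth muscle and pericytes summed higher in sick quadriceps (5605 to 6191 against 4238 to 4553). Most of that sum was Des, itself a member, with 2535 to 7553 CPM over all libraries. No other marker of that list passed 648 CPM. Without Des, the others together were lower in sick than in wild-type quadriceps without overlap. Schwann cell markers were lower in sick tibialis (69.8 to 102 against 136 to 305). The healthy knock-in quadriceps library of replicate 4 stood apart with 1675 CPM of adipocyte and 1960 CPM of endothelial markers. Most of the endothelial sum was Fabp4 alone (1626 CPM), and no other endothelial marker passed 238 CPM in any library. The part of these tissues and of the mitochondrial share in the changes given below was not tested. In muscle pieces such as these, fewer fibres of a type and less RNA per fibre cannot be told apart.

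In wild-type muscle, levels per length (CPM per kilobase of exon) differed widely among the members. Acta1, the skeletal alpha-actin that builds the thin filament, led in each muscle with 26834 ± 6322, 29164 ± 4442 and 26384 ± 5097 CPM per kilobase (mean ± SD, n = 4) in gastrocnemius, quadriceps and tibialis, the order used throughout. Actn3, the alpha-actinin of fast fibres that crosslinks thin filaments in the Z-disc, followed in gastrocnemius and quadriceps and came after Tcap in tibialis, with 2891 ± 999, 3928 ± 462 and 2101 ± 501. The highest member of the M-band and myosin-binding group was Mybpc2, fast myosin-binding protein C, at 1706 ± 492, 2606 ± 700.3 and 1268 ± 297. Tcap, which caps the end of titin in the Z-disc, stood at 2643 ± 1028, 1915 ± 409 and 3303 ± 1768. Its libraries overlapped those of Actn3 in gastrocnemius and tibialis and lay below all of them in quadriceps. Des (desmin) stood at 1091 ± 262, 974 ± 33.8 and 1173 ± 229.
Neb (nebulin), the ruler of thin filaments, had 233 ± 84.9, 313 ± 71.9 and 213 ± 71.7 CPM per kilobase, above its giant partner Ttn (titin) at 77.7 ± 33, 94 ± 14.4 and 54.9 ± 14. Klhl41, a Kelch protein that stabilizes nebulin, led the assembly and turnover group with 263 ± 46.4, 237 ± 22.7 and 282 ± 69.9. In the periphery of the Z-disc, Cmya5 (myospryn) had 222 ± 85.8, 285 ± 20.6 and 195 ± 45.9 and Nrap, a nebulin-related anchoring protein, 204 ± 16.8, 197 ± 41.4 and 282 ± 54.9, levels that do not differ beyond their spread in gastrocnemius. The lowest levels were those of Myom3, a myomesin of slow and intermediate fibres, in quadriceps (2.84 ± 2.2) and tibialis (5.55 ± 1.56) and of Obsl1, an obscurin-like linker of the M-band, in gastrocnemius (8.46 ± 3.97).

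**Figure D1:**
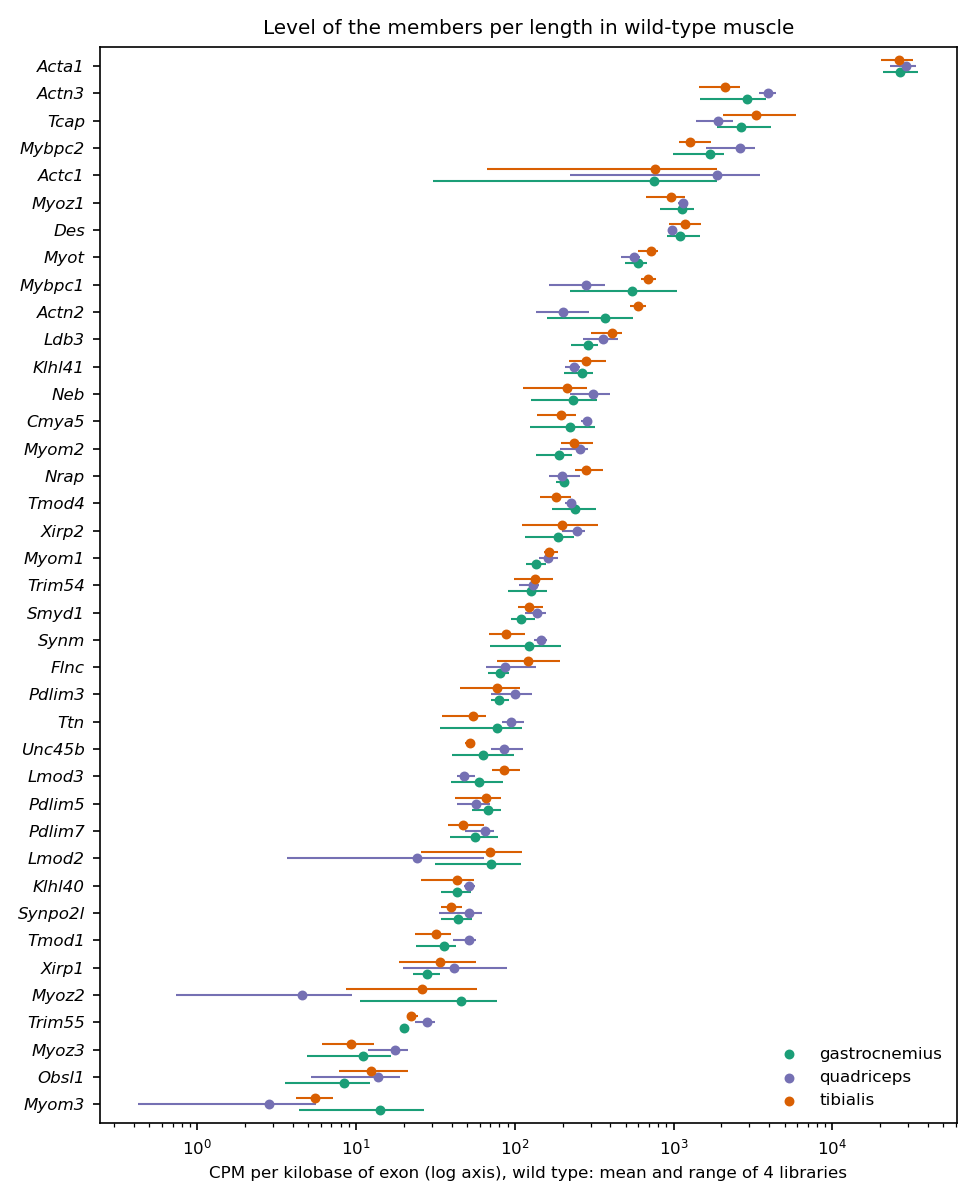
Level per length of each member in wild-type muscle, in CPM per kilobase of exon on a log axis, with the mean (point) and the range (bar) of 4 wild-type libraries per muscle. Acta1 lies far above all other members in each muscle, and Actc1 and Lmod2 have wide bars.

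Wild-type libraries of 1 muscle differed among themselves in several members. The ratio of the highest to the lowest of the 4 wild-type libraries had a median over the members of 1.88, 1.52 and 1.70, and was above 3 for 9, 6 and 5 members. Actc1, Lmod2 and Myoz2 were among them in every muscle. Actc1, the cardiac alpha-actin, also used in developing skeletal muscle, ran from 29.8 to 5636 CPM over the 32 libraries. Its wild-type values were 1601, 3057, 49.2 and 167 CPM in gastrocnemius, 3239, 5636, 2896 and 361 in quadriceps and 1019, 3034, 770.3 and 108 in tibialis, so that libraries of 1 muscle lay far apart.

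Between wild-type muscles, 2 members passed an adjusted p of 0.05, both higher in tibialis than in quadriceps, where 5.67% of all genes tested passed in either direction, 3.58% higher and 2.09% lower. Actn2, the alpha-actinin of slow and oxidative fibres, was 2134, 2008, 2535 and 2398 CPM in tibialis and 626, 519.7, 786 and 1109.7 in quadriceps. Lmod3, a leiomodin that nucleates thin filaments, was 185, 170.3, 239.7 and 160.4 CPM in tibialis and 107, 98.2, 95.8 and 124 in quadriceps. All 4 tibialis libraries lay above all 4 quadriceps libraries for both genes. These tibialis libraries are those with the kidney tubule markers given above, whose part here was not tested. The log2 fold change was 1.63 ± 0.34 (estimate ± SE, n = 4 against 4, limma adjusted p = 0.0164) for Actn2 and 0.83 ± 0.21 (adjusted p = 0.0388) for Lmod3. The call of Actn2 was lost without quadriceps wild-type replicate 1, 2 or 3 or tibialis wild-type replicate 3 or with low-count genes kept (adjusted p = 0.050025 to 0.0621), and that of Lmod3 without quadriceps wild-type replicate 1, 2 or 3 or tibialis wild-type replicate 1, 2 or 3 (adjusted p = 0.0717 to 0.123). With the replicate number as a block, which pairs the wild-type libraries of these 2 muscles, 8 members passed in this comparison. No member passed between quadriceps and gastrocnemius (1.07% of all genes did, and 7 members had an unadjusted p under 0.05) or between tibialis and gastrocnemius (2.58%, 4 members), with limma-voom or limma-trend. With the block, 1 passed between quadriceps and gastrocnemius. Myoz2 had the lowest adjusted p there, at 0.0714, with 263, 92.8, 239 and 36.4 CPM in gastrocnemius and 18, 2.52, 9.42 and 32.3 in quadriceps.

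Sick muscle was first set against wild type, to ask which structural genes differ when mutant mice are sick. In gastrocnemius 6 of the 39 members rose and 3 fell, in quadriceps 3 rose and 6 fell, and in tibialis 2 rose and 2 fell (limma, adjusted p under 0.05 over all genes tested). All 39 members passed the filter on low counts in every comparison. The members called were 23.1, 23.1 and 10.3% of those tested, and of all genes tested 14.7, 18.0 and 18.1% were called. By direction, 8.22, 10.5 and 8.44% of all genes rose and 6.52, 7.49 and 9.61% fell. The median log2 fold change of the members was 0.05, -0.04 and -0.23, against -0.03, 0.00 and -0.05 for all genes tested. Flnc, Nrap and Myot rose and Myoz3, Synm and Smyd1 fell in both gastrocnemius and quadriceps. No member was called in all 3 muscles, and 23 were called in none. Sick and wild-type values did not overlap for 11, 9 and 6 members, and for 27.2, 30.2 and 30.8% of all genes tested.
Among the sick gastrocnemius libraries, replicate 1 lay nearest to the wild-type mean for all 9 members called there, and among the sick quadriceps libraries replicate 4 did so for all 9 called there. Leaving out sick replicate 1 raised the count in gastrocnemius from 9 to 11 members, and leaving out sick replicate 3 lowered it to 3. It was 5 without wild-type replicate 2 or sick replicate 2. In quadriceps the count was 18 without sick replicate 4, 0 without sick replicate 2 and 2 without sick replicate 3 or without wild-type replicate 1, 2 or 3. In tibialis it stayed between 3 and 5.

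**Figure D2:**
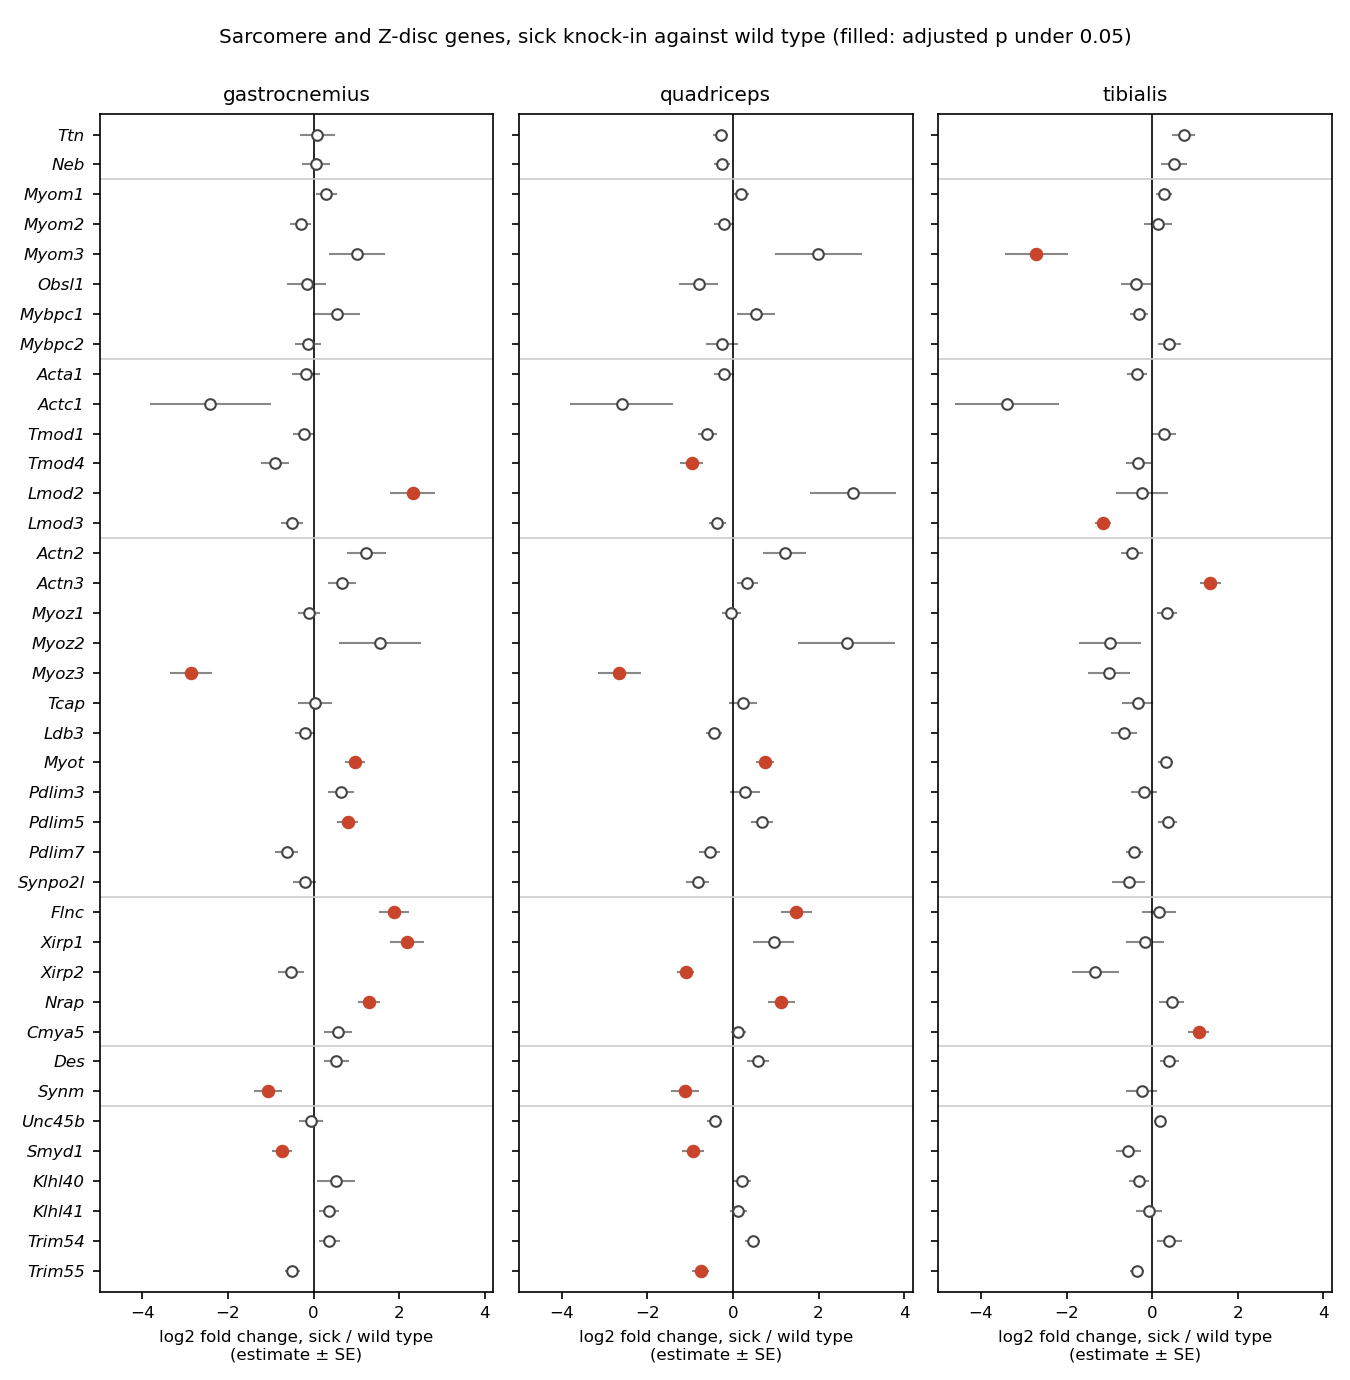
Log2 fold change of each of the 39 members between sick knock-in and wild type in gastrocnemius, quadriceps and tibialis, grouped by role, as the estimate ± SE of limma from 3 sick and 4 wild-type libraries. Filled red points have an adjusted p under 0.05, and the Z-disc periphery genes Flnc, Xirp1 and Nrap lie to the right in gastrocnemius.

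The 5 genes of the Z-disc periphery, of repair and of the costamere had the highest median of the role groups in gastrocnemius and quadriceps, with a median log2 fold change of 1.29 and 0.95, against 0.16 in tibialis. In gastrocnemius 3 of the 5 rose and in quadriceps 2 rose and 1 fell. Flnc (filamin C; chromosome 6, 29433256 to 29461883, plus strand) crosslinks actin at the Z-disc and costamere and moves quickly to sites of damage. Flnc was 636, 723, 871 and 792 CPM in the wild-type, 757, 638 and 517 in the healthy knock-in and 1326, 3450.4 and 4454 in the sick knock-in libraries of gastrocnemius. In quadriceps Flnc was 630.3, 734, 615 and 1275 CPM in the wild-type, 637, 488, 850.4 and 493 in the healthy knock-in and 3350.1, 2638 and 1188 in the sick knock-in libraries. Every sick gastrocnemius library was above every wild-type one, whereas sick quadriceps replicate 4 lay within the wild-type range. The log2 fold change was 1.88 ± 0.36 (limma adjusted p = 0.00988), a 3.67-fold level, in gastrocnemius and 1.49 ± 0.37 (adjusted p = 0.0246) in quadriceps. The gastrocnemius call held in all 14 alternatives, and the quadriceps call was lost without wild-type replicate 1, 2 or 3 or sick replicate 2 or 3, with low-count genes kept or with the replicate block (adjusted p = 0.0571 to 0.135). In tibialis Flnc was 728, 1282, 756 and 1801 CPM in the wild-type, 1026, 693, 2122 and 802 in the healthy knock-in and 1278, 1288 and 1010.0 in the sick knock-in libraries, all 3 sick values lay within the wild-type range, and the log2 fold change was 0.16 ± 0.39 (adjusted p = 0.79).

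Xirp1, the first of a pair of actin-binding Xin repeat proteins (chromosome 9, 120013755 to 120023598, minus strand), marks regenerating and damaged fibres. Gastrocnemius libraries held 154, 165, 134 and 198 CPM in the wild-type, 144, 245 and 102 in the healthy knock-in and 401, 759 and 1265 in the sick knock-in libraries. The 3 sick libraries lay above all others of that muscle, and the log2 fold change to wild type was 2.19 ± 0.39 (limma adjusted p = 0.00788), which held in all 14 alternatives. Quadriceps libraries held 116, 215, 115 and 523 CPM in the wild-type, 110.0, 165, 142 and 113 in the healthy knock-in and 569.8, 382 and 268 in the sick knock-in libraries. There wild-type replicate 4 was above sick replicates 3 and 4, and the value of 0.95 ± 0.48 did not pass (adjusted p = 0.179). In tibialis the sick values of 211, 86.6 and 206 CPM overlapped the wild-type values of 109, 232, 114 and 334 (-0.16 ± 0.45, adjusted p = 0.82). Xirp1 overlaps Cx3cr1, a receptor of macrophages, on the same strand, so that reads of the overlap cannot be assigned.

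Xirp2, its paralog (chromosome 2, 67446002 to 67526614, plus strand), fell in quadriceps. In quadriceps Xirp2 was 2974, 3327, 3124 and 2379.7 CPM in the wild-type, 2833, 2276, 2747 and 2364 in the healthy knock-in and 1321, 1016 and 1817 in the sick knock-in libraries. All sick values were below all others, with a log2 fold change of -1.10 ± 0.20 (limma adjusted p = 0.0104), and the call was lost without sick replicate 2 or with all 32 libraries in 1 model (adjusted p = 0.0517 to 0.0673). The values to wild type were -0.53 ± 0.30 in gastrocnemius and -1.32 ± 0.54 in tibialis (adjusted p = 0.24 and 0.103), with 1116, 281 and 1999 CPM in the 3 sick and 1849.7, 2344, 1325 and 3983 CPM in the wild-type tibialis libraries. The difference in change between the paralogs was not tested.

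Nrap binds actin and talin at the ends of growing myofibrils (chromosome 19, 56320035 to 56390037, minus strand). Nrap levels in gastrocnemius were 1194, 1004, 1092 and 1198 CPM in the wild-type, 812, 890.3 and 1064 in the healthy knock-in and 1737, 3319 and 3549 in the sick knock-in libraries. Quadriceps gave 1019.8, 899, 1002 and 1417 CPM in the wild-type, 838, 599, 985 and 420.4 in the healthy knock-in and 3185, 2448 and 1657 in the sick knock-in libraries. In both muscles each sick library was above each wild-type and healthy one, with log2 fold changes of 1.29 ± 0.26 and 1.13 ± 0.31 to wild type (limma adjusted p = 0.0118 and 0.0322). The gastrocnemius call was lost without sick replicate 3 (adjusted p = 0.0528) and the quadriceps call without wild-type replicate 1, 2 or 3 or sick replicate 2 or 3, with low-count genes kept or with the replicate block (adjusted p = 0.0645 to 0.174). The sick tibialis libraries held 2204, 2409 and 1716 CPM and the wild-type ones 1382, 1513, 1319 and 1987, a log2 fold change of 0.45 ± 0.29 (adjusted p = 0.275). Nrap overlaps Habp2 and Gm17197 on the opposite strand, and no source used here gives the strand setting of the counting.

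Cmya5 (myospryn; chromosome 13, 93040713 to 93144724, minus strand), a large protein of the costamere that binds desmin and dysferlin, rose in tibialis. Tibialis libraries held 2121, 2868, 1636 and 2603 CPM in the wild-type, 3232, 2132, 3310.2 and 2587 in the healthy knock-in and 5491, 3931 and 4997 in the sick knock-in libraries for Cmya5. The 3 sick libraries lay above all other tibialis libraries, with a log2 fold change of 1.08 ± 0.24 (limma adjusted p = 0.0147) that passed in all 14 alternatives (adjusted p up to 0.0497). In gastrocnemius the sick values of 4215, 3223 and 3832 CPM overlapped the wild-type values of 1482, 3063, 2184 and 3812, and in quadriceps 3624, 3243 and 4105 overlapped 3077, 3645, 3305 and 3485 (log2 fold change 0.57 ± 0.33 and 0.13 ± 0.17, adjusted p = 0.249 and 0.627).

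**Figure D3:**
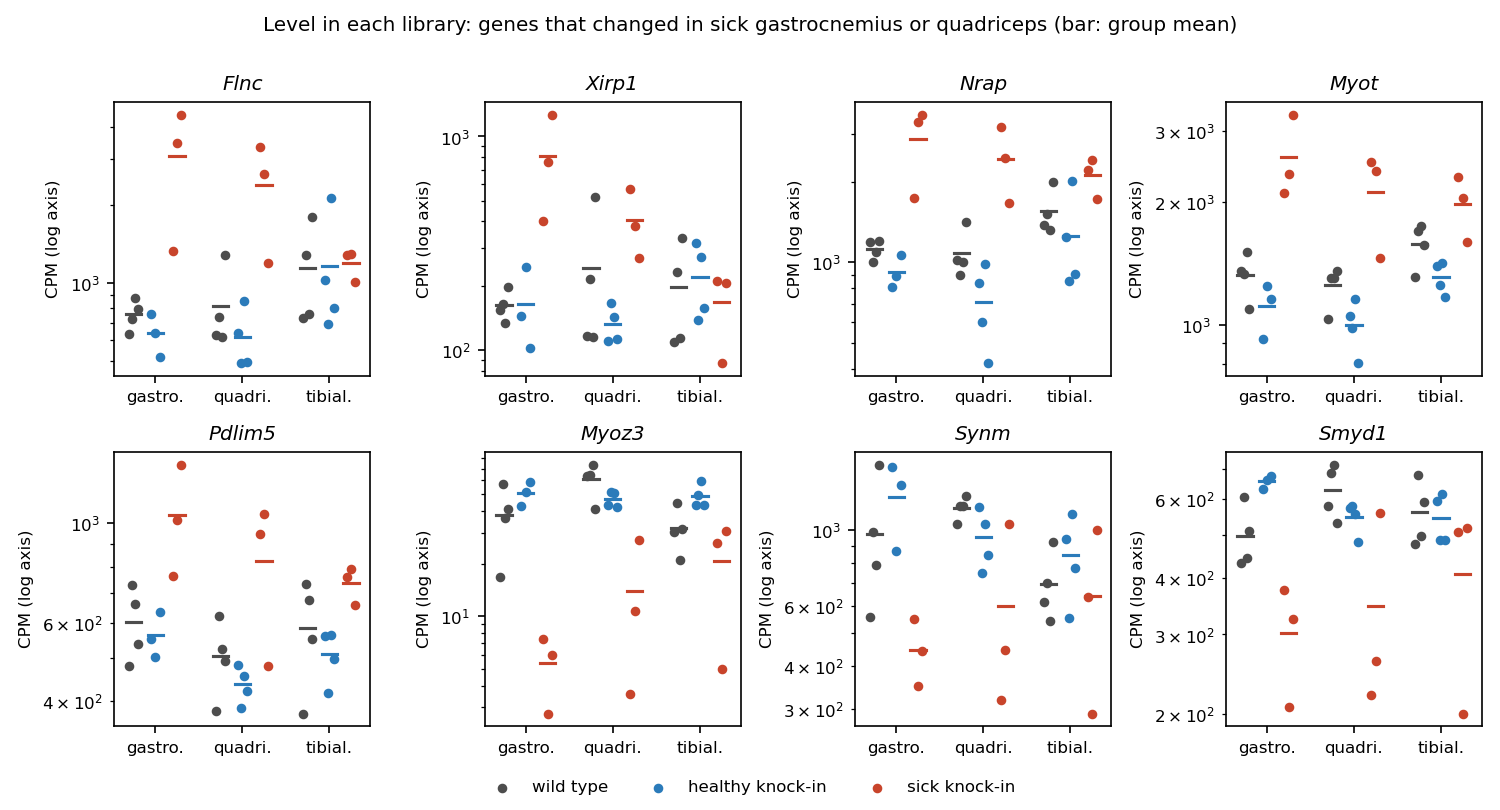
CPM (log axis) of members called in sick gastrocnemius or quadriceps, 1 point per library in each of the 3 muscles, with a bar at the group mean (grey wild type, blue healthy knock-in, red sick knock-in). Flnc, Xirp1, Nrap and Myot of the 3 sick gastrocnemius libraries lie above the wild-type points and Myoz3 below them.

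Of the 12 members of the Z-disc core, Myot and Pdlim5 rose and Myoz3 fell in gastrocnemius, Myot rose and Myoz3 fell in quadriceps, and Actn3 rose in tibialis. Myot (myotilin, ENSMUSG00000024471) binds alpha-actinin and filamin and crosslinks actin. In gastrocnemius Myot was 1353, 1333, 1512 and 1097 CPM in the wild-type, 925, 1249 and 1156 in the healthy knock-in and 2107, 2346 and 3287 in the sick knock-in libraries. For quadriceps the values were 1033, 1304, 1306 and 1358 CPM in the wild-type, 1052, 984, 1158 and 804 in the healthy knock-in and 2516, 2394 and 1459 in the sick knock-in libraries. The sick libraries of both muscles lay above all others, with log2 fold changes of 0.97 ± 0.23 and 0.75 ± 0.21 (limma adjusted p = 0.022 and 0.0323). The gastrocnemius call was lost without wild-type replicate 2 or sick replicate 3, with the replicate block or with only the 2 groups in the model (adjusted p = 0.0508 to 0.0866), and the quadriceps call without wild-type replicate 1, 2 or 3 or sick replicate 2 or 3, with low-count genes kept, with the replicate block or with only the 2 groups in the model (adjusted p = 0.0556 to 0.174). Tibialis gave 1311, 1697, 1754 and 1574 CPM in wild-type and 2309, 2049 and 1597 in sick libraries, which overlap (0.32 ± 0.18, adjusted p = 0.225).

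Pdlim5, a PDZ and LIM domain protein that links alpha-actinin to signalling enzymes (chromosome 3, 142239590 to 142395696, minus strand), had 479, 729, 659 and 538 CPM in the wild-type, 550.1, 504 and 632 in the healthy knock-in and 761, 1019 and 1351 in the sick knock-in libraries of gastrocnemius. The sick values were above all others, by a log2 fold change of 0.79 ± 0.24 to wild type (limma adjusted p = 0.0488), close to the threshold. The call was lost without wild-type replicate 1, 2, 3 or 4 or sick replicate 2 or 3, with the replicate block or with only the 2 groups in the model (adjusted p = 0.0638 to 0.182). The same difference was 0.68 ± 0.25 in quadriceps and 0.37 ± 0.22 in tibialis (adjusted p = 0.0778 and 0.255). Of its relatives, Pdlim3 and Pdlim7 were not called in any muscle, with values from -0.63 (Pdlim7) to 0.64 (Pdlim3), both in gastrocnemius.

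The calsarcins, encoded by the Myoz genes, tether the phosphatase calcineurin to alpha-actinin. Myoz3 (ENSMUSG00000049173), the calsarcin of fast fibres, had the largest fall of the members in gastrocnemius and quadriceps. Its gastrocnemius values were 16.8, 56.9, 36.3 and 41.1 CPM in the wild-type, 42.6, 51.7 and 58.7 in the healthy knock-in and 7.4, 2.76 and 5.99 in the sick knock-in libraries. Its quadriceps values were 63.9, 64.7, 73.5 and 41.2 CPM in the wild-type, 43.3, 51, 50.7 and 42.2 in the healthy knock-in and 3.58, 10.7 and 27.3 in the sick knock-in libraries. Every sick library of these muscles was below every wild-type and healthy one. The log2 fold change was -2.87 ± 0.49 (limma adjusted p = 0.00722), a 0.137-fold level, and -2.65 ± 0.50 (adjusted p = 0.0113), a 0.159-fold level. The first held in all 14 alternatives and the second was lost without sick replicate 2 (adjusted p = 0.0517). In tibialis Myoz3 was 30.2, 44.5, 20.9 and 31.7 CPM in the wild-type, 43, 49.6, 59.4 and 43.2 in the healthy knock-in and 26.4, 4.96 and 30.7 in the sick knock-in libraries, and the low sick value is that of replicate 2 (-1.01 ± 0.50, adjusted p = 0.167). Myoz1, the other calsarcin of fast fibres, was not called, with -0.10 ± 0.26, -0.04 ± 0.22 and 0.35 ± 0.24 (adjusted p = 0.815, 0.925 and 0.31). Myoz2, that of slow fibres, had 1.55 ± 0.96, 2.65 ± 1.12 and -0.99 ± 0.72 (adjusted p = 0.283, 0.115 and 0.339).

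Actn3 (chromosome 19, 4861216 to 4877909, minus strand) was 4211, 7623, 5829 and 6718 CPM in the wild-type, 8415, 6782, 9637 and 8262 in the healthy knock-in and 18245, 11845 and 16478 in the sick knock-in libraries of tibialis. All 3 sick values were above all others, at a log2 fold change of 1.36 ± 0.24 (limma adjusted p = 0.00672), a 2.57-fold level that held in all 14 alternatives. Gastrocnemius held 8675, 9574, 4288 and 11009 CPM in the wild-type, 11488, 10609 and 11289.8 in the healthy knock-in and 16442, 9005 and 13604 in the sick knock-in libraries. Quadriceps held 10495, 12123, 12904 and 10063 CPM in the wild-type, 11874, 9557, 7052 and 9390.3 in the healthy knock-in and 9528, 13888 and 20385 in the sick knock-in libraries. In these muscles the groups overlapped, with 0.66 ± 0.34 and 0.33 ± 0.24 (adjusted p = 0.194 and 0.35).
Its slow and oxidative counterpart Actn2 was 1791, 1109.8, 2096 and 603 CPM in the wild-type, 321, 775 and 524 in the healthy knock-in and 2859, 2331 and 3469.7 in the sick knock-in libraries of gastrocnemius. The 3 sick values were above all wild-type values, but the log2 fold change of 1.23 ± 0.45 did not pass (adjusted p = 0.0853). Quadriceps and tibialis gave 1.21 ± 0.50 and -0.47 ± 0.26 (adjusted p = 0.108 and 0.217), with 3135, 2246 and 695 CPM in the sick and 626, 519.7, 786 and 1109.7 in the wild-type quadriceps libraries. Synpo2l (an actin-bundling partner of alpha-actinin), Ldb3 (a PDZ-LIM protein of the Z-disc) and Tcap were not called in any muscle.

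Of the 6 thin filament genes, Lmod2 rose in gastrocnemius, Tmod4 fell in quadriceps and Lmod3 fell in tibialis. Lmod2 (leiomodin 2; chromosome 6, 24597762 to 24605414, plus strand) lengthens thin filaments at their pointed end, against the capping tropomodulins. Lmod2 in gastrocnemius was 213, 62.5, 216 and 69.2 CPM in the wild-type, 18.3, 47.2 and 31.8 in the healthy knock-in and 484, 512 and 725 in the sick knock-in libraries. The groups lay apart in the order healthy, wild type, sick, and the log2 fold change between sick and wild type was 2.31 ± 0.53 (limma adjusted p = 0.0208), a 4.96-fold level. It was lost without sick replicate 2 or 3, with low-count genes kept, with the replicate block or with all 32 libraries in 1 model (adjusted p = 0.0524 to 0.0691). In quadriceps Lmod2 was 38.1, 7.25, 18.9 and 126 CPM in the wild-type, 51.2, 18.6, 81.2 and 27.3 in the healthy knock-in and 386, 409 and 39 in the sick knock-in libraries. Sick replicates 2 and 3 were above all others and sick replicate 4 was within the wild-type range (2.81 ± 1.01, adjusted p = 0.0731). Tibialis libraries gave -0.23 ± 0.61 (adjusted p = 0.809).

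Lmod3 (chromosome 6, 97238534 to 97252759, minus strand) was 185, 170.3, 239.7 and 160.4 CPM in the wild-type, 129.5, 109.7, 151 and 102 in the healthy knock-in and 89.7, 85.8 and 77.3 in the sick knock-in libraries of tibialis. The 3 groups did not overlap, with wild type highest and sick lowest. Between sick and wild type the log2 fold change was -1.15 ± 0.18 (limma adjusted p = 0.00407), which held in all 14 alternatives. Lmod3 in the other muscles was 76.4 to 111 CPM in sick against 87.8 to 186 in wild-type gastrocnemius and 67.3 to 99.9 against 95.8 to 124 in quadriceps (-0.50 ± 0.26 and -0.36 ± 0.21, adjusted p = 0.201 and 0.231). The wild-type tibialis libraries are those with the kidney tubule markers given above, and the sick tibialis libraries those with fewer tendon markers. Their part in the tibialis changes of Lmod3, Actn3, Cmya5 and Myom3 was not tested.

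Tmod4, the tropomodulin of skeletal muscle (chromosome 3, 95124476 to 95129209, plus strand), was 389.8, 388, 418 and 355 CPM in the wild-type, 488, 363, 339.6 and 331 in the healthy knock-in and 112, 203 and 319 in the sick knock-in libraries of quadriceps. All sick values were below all others (-0.97 ± 0.28, limma adjusted p = 0.0366), and the call was lost without wild-type replicate 1, 2 or 3 or sick replicate 2 or 3, with the replicate block or with only the 2 groups in the model (adjusted p = 0.0632 to 0.125). Gastrocnemius gave -0.90 ± 0.33 and tibialis -0.32 ± 0.30 (adjusted p = 0.0861 and 0.455). Acta1 was 53220.4, 44833, 32049.9 and 34763 CPM in the wild-type, 40294, 50902 and 44734 in the healthy knock-in and 34241, 23311 and 54877 in the sick knock-in libraries of gastrocnemius, 35438 to 51580.4 in wild-type against 24885 to 46794 CPM in sick quadriceps and 30911 to 49782 against 22309.7 to 42239 in tibialis. The sick and wild-type ranges overlap in each muscle, and the log2 fold changes were -0.17 ± 0.33, -0.21 ± 0.23 and -0.36 ± 0.23 (adjusted p = 0.75, 0.542 and 0.276). Actc1 had the lowest estimate of all members in tibialis, -3.39 ± 1.2161 (adjusted p = 0.069), with 35.6, 39.4 and 238 CPM in the sick libraries, of which replicate 4 alone lay above the lowest wild-type library.

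In the M-band and myosin-binding group only Myom3 was called, lower in sick tibialis. Myom3 (chromosome 4, 135759715 to 135815564, plus strand) was 25.5, 25.3, 40.2 and 43 CPM in the wild-type, 9.4, 30.7, 21.7 and 18.6 in the healthy knock-in and 33.9, 2.38 and 1.86 in the sick knock-in libraries of tibialis. Sick replicates 2 and 4 lay below all others and sick replicate 1 lay within the wild-type range. The log2 fold change was -2.71 ± 0.74 (limma adjusted p = 0.0286), and the call was lost without wild-type replicate 2, 3 or 4 or sick replicate 2 or 4, with low-count genes kept, with library quality weights, with the replicate block or with only the 2 groups in the model (adjusted p = 0.0534 to 0.193). Gastrocnemius held 99.1, 52.9, 161 and 26.5 CPM in the wild-type, 9.03, 42.3 and 8.38 in the healthy knock-in and 145, 112 and 144 in the sick knock-in libraries, and its value of 1.02 ± 0.65 did not pass (adjusted p = 0.296). Quadriceps held 20.9, 2.58, 11.5 and 33.6 CPM in the wild-type, 16.4, 14.8, 37.9 and 7.34 in the healthy knock-in and 112, 75.9 and 7.99 in the sick knock-in libraries, and sick replicates 2 and 3 were above all others (1.99 ± 1.01, adjusted p = 0.18).
Fibre-type genes varied between these same libraries. Myh2, the myosin heavy chain of fast oxidative fibres, was 2197, 1061, 2332 and 1956 CPM in wild-type and 1216, 426 and 398 in sick tibialis, and 547, 295, 443 and 1884 in wild-type and 2399, 2041 and 375 in sick quadriceps. Myh7, that of slow fibres, was 526, 66.1, 17 and 85.2 CPM in wild-type, 1.47, 482 and 8.04 in healthy and 793, 68.2 and 1871 in sick gastrocnemius. In quadriceps the sick libraries high in Myh2 (replicates 2 and 3) are those high in Myom3, Lmod2, Myoz2 and Actn2. Whether the fibre makeup of the piece sets the levels of these members was not tested.
Myom1 and Myom2, the other myomesins, and Obsl1 were not called in any muscle. Mybpc2, which modulates myosin heads in fast fibres, was 7459, 7086, 3558 and 6539.6 CPM in wild-type and 5097, 4108 and 7481 in sick gastrocnemius. In quadriceps Mybpc2 was 11721, 9913, 10196 and 5809 CPM in wild-type against 4716, 7401 and 11564 in sick libraries, and in tibialis 3888, 6174, 4177 and 4069 against 4912, 4689.7 and 9125. The groups overlap in each muscle, with -0.13 ± 0.31, -0.26 ± 0.37 and 0.40 ± 0.26 (adjusted p = 0.801, 0.649 and 0.287). Its slow relative Mybpc1 had 0.54 ± 0.55, 0.54 ± 0.45 and -0.31 ± 0.21 (adjusted p = 0.518, 0.414 and 0.313).

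**Figure D4:**
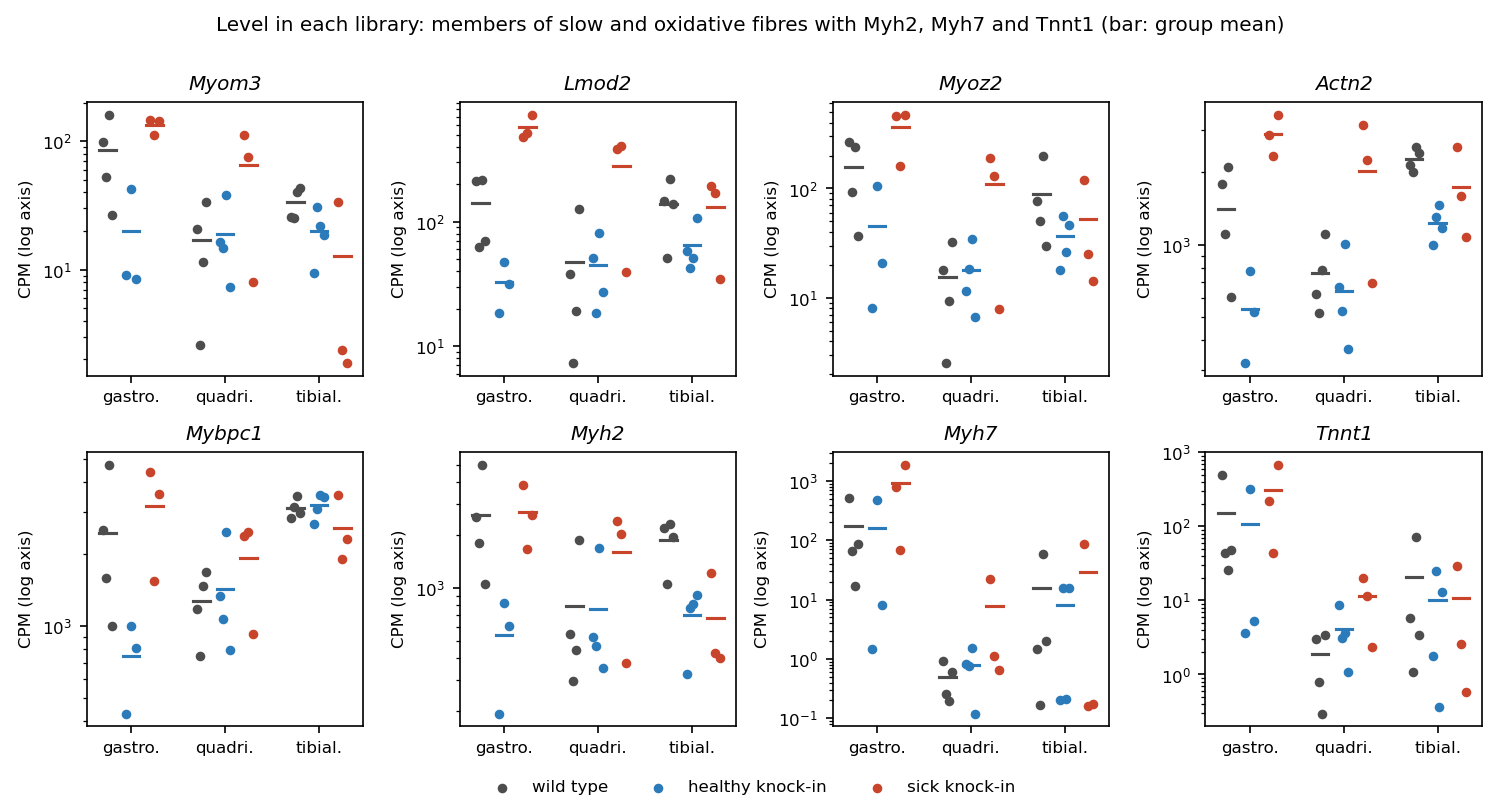
CPM (log axis) of members used by slow and oxidative fibres, and of Myh2, Myh7 and Tnnt1, which are not members. There is 1 point per library in each of the 3 muscles, with a bar at the group mean (grey wild type, blue healthy knock-in, red sick knock-in). In gastrocnemius the healthy points of Lmod2 lie below and the sick points above those of wild type, and in quadriceps 1 sick point of Lmod2, Myom3 and Myoz2 stays among the wild-type points.

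Of the intermediate filament pair, Synm fell in gastrocnemius and quadriceps and Des was not called. Synm (synemin; chromosome 7, 67730160 to 67759742, minus strand) joins desmin filaments to the costamere. Gastrocnemius libraries held 555, 986, 789.8 and 1552 CPM in the wild-type, 1533, 866 and 1352 in the healthy knock-in and 549, 349 and 442 in the sick knock-in libraries for Synm. Quadriceps libraries held 1043, 1173, 1179 and 1258 CPM in the wild-type, 1168, 749, 1045 and 844 in the healthy knock-in and 317, 445 and 1040.4 in the sick knock-in libraries for it. The sick values were below all wild-type values in both muscles, by a narrow margin for gastrocnemius replicate 1 and quadriceps replicate 4. The log2 fold changes were -1.07 ± 0.33 and -1.11 ± 0.33 (limma adjusted p = 0.0494 and 0.0385). The gastrocnemius call was lost without wild-type replicate 2, 3 or 4 or sick replicate 2 or 3, with median-of-ratios size factors, with low-count genes kept, with limma-trend, with the replicate block or with only the 2 groups in the model (adjusted p = 0.0534 to 0.166), and the quadriceps call without wild-type replicate 1, 2, 3 or 4 or sick replicate 2 or 3, with low-count genes kept, with the replicate block or with only the 2 groups in the model (adjusted p = 0.066 to 0.167). Synm overlaps Ttc23 on the opposite strand. In tibialis the value was -0.24 ± 0.36 (adjusted p = 0.656).
Des was 5547, 3581, 3402 and 3854 CPM in the wild-type, 5002, 3282 and 3803 in the healthy knock-in and 7553, 4071 and 6211 in the sick knock-in libraries of gastrocnemius. Quadriceps held 3753, 3587, 3511 and 3770.0 CPM of Des in wild-type against 5100.3, 5674 and 5496 in sick libraries, and tibialis 3497, 4123, 5552 and 4438 against 7018, 4819 and 5568. The sick quadriceps libraries lay above the wild-type ones, and no muscle passed (0.53 ± 0.28, 0.59 ± 0.25 and 0.40 ± 0.22, adjusted p = 0.209, 0.119 and 0.203).

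Among the 6 genes of assembly and turnover, Smyd1 fell in gastrocnemius and quadriceps and Trim55 in quadriceps. Smyd1 (chromosome 6, 71213940 to 71322233, minus strand), a methyltransferase that guides myosin into thick filaments, was 432, 606, 444 and 509 CPM in the wild-type, 633, 662 and 676 in the healthy knock-in and 376, 207 and 325 in the sick knock-in libraries of gastrocnemius. Quadriceps held 581, 686, 715 and 530.3 CPM in the wild-type, 574, 579, 555 and 482 in the healthy knock-in and 221, 262 and 559 in the sick knock-in libraries for Smyd1. The sick values were below the wild-type ones in gastrocnemius, and sick replicate 4 of quadriceps was within the wild-type range. The log2 fold changes were -0.74 ± 0.23 and -0.94 ± 0.26 (limma adjusted p = 0.0485 and 0.0334). The first was lost without wild-type replicate 1, 2, 3 or 4 or sick replicate 2 or 3, with median-of-ratios size factors, with the replicate block, with only the 2 groups in the model or with all 32 libraries in 1 model (adjusted p = 0.0508 to 0.156), and the second without wild-type replicate 1, 2 or 3 or sick replicate 2 or 3, with the replicate block or with only the 2 groups in the model (adjusted p = 0.0659 to 0.157). Smyd1 overlaps Krcc1 on the opposite strand.
Trim55 (a ubiquitin ligase that associates with titin and microtubules, also named MURF2; chromosome 3, 19644474 to 19692421, plus strand) was 80.1, 69.3, 84.1 and 62.6 CPM in the wild-type, 64.1, 92.3, 61.4 and 55.8 in the healthy knock-in and 44.4, 33.3 and 52.1 in the sick knock-in libraries of quadriceps. The sick values lay below all others (-0.75 ± 0.20, limma adjusted p = 0.027), and the call was lost without wild-type replicate 1, 2 or 3 or sick replicate 2 or 3 or with the replicate block (adjusted p = 0.0523 to 0.102). Sick values were also below wild-type values without overlap in gastrocnemius (35.9, 39.8 and 37.8 against 53.5, 54.6, 50.1 and 55.1 CPM) and tibialis (50.017, 39.5 and 49.6 against 59.8, 55.7, 64.9 and 56.2), where the differences of -0.50 ± 0.17 and -0.36 ± 0.16 did not pass (adjusted p = 0.0687 and 0.139). Its relative Trim54 had 0.37 ± 0.24, 0.46 ± 0.18 and 0.40 ± 0.28 (adjusted p = 0.311, 0.0947 and 0.321). Trim55 overlaps BC002189 on the same strand, so that reads of the overlap cannot be assigned.
Klhl41 was 716, 517, 792 and 639 CPM in wild-type against 1096, 614 and 866 in sick gastrocnemius, 630.0, 523, 655 and 593 against 580.1, 622 and 746 in quadriceps, and 554, 598, 757 and 944 against 1007, 397 and 712 in tibialis. The groups overlapped in each muscle (0.36 ± 0.23, 0.13 ± 0.19 and -0.07 ± 0.30, adjusted p = 0.296, 0.665 and 0.89). Klhl40, its paralog, and Unc45b, a chaperone of myosin, were likewise not called, and the sick values of Unc45b lay below the wild-type ones in quadriceps (-0.43 ± 0.18) and above them in tibialis (0.18 ± 0.14) without overlap (adjusted p = 0.117 and 0.375).

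Titin and nebulin were not called in any muscle. Neb was 3344, 8731, 5739 and 6920.1 CPM in wild-type against 6291, 4690.1 and 7555 in sick gastrocnemius, 8602, 10599, 8138 and 5944 against 6272, 6438 and 7466 in quadriceps, and 6072, 7534, 2994 and 6008 against 8941, 5293 and 9237 in tibialis. The groups overlapped in each muscle. The log2 fold changes were 0.05 ± 0.32, -0.25 ± 0.19 and 0.51 ± 0.30 (adjusted p = 0.923, 0.356 and 0.238). For Ttn the 3 sick tibialis values of 12781, 7785 and 10990.0 CPM lay above the 4 wild-type values of 7713, 7398, 4092 and 6474, but 0.73 ± 0.27 did not pass (adjusted p = 0.0739).

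**Figure D5:**
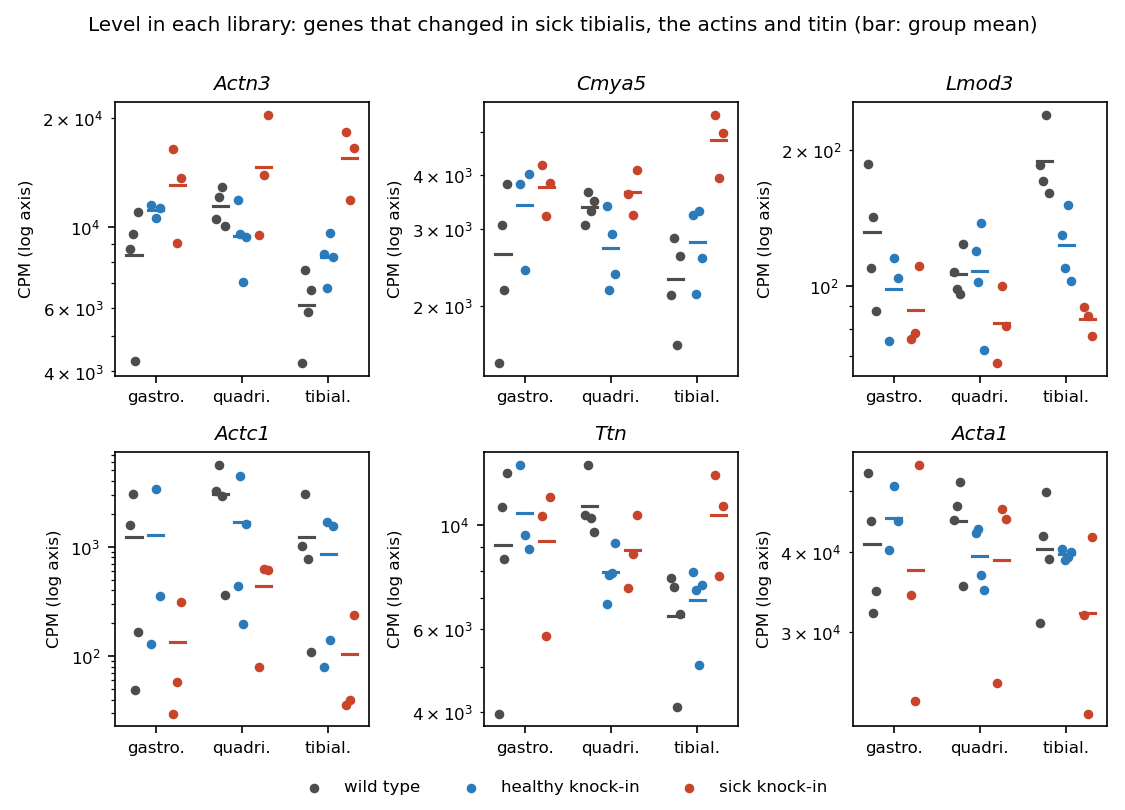
CPM (log axis) of Actn3, Cmya5 and Lmod3, called in sick tibialis, of the actins Actc1 and Acta1, and of Ttn. There is 1 point per library in each of the 3 muscles, with a bar at the group mean (grey wild type, blue healthy knock-in, red sick knock-in). The 3 sick tibialis points lie above the wild-type ones for Actn3 and Cmya5 and below them for Lmod3, and Actc1 spreads widely within each group.

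Whether the change between sick and wild type differed between muscles was tested directly in a model of all 32 libraries. No member passed between quadriceps and gastrocnemius, tibialis and gastrocnemius, or tibialis and quadriceps with limma-voom or limma-trend, nor with the same-numbered libraries of a state as blocks, a fit chosen after seeing the data, and 0.0, 0.204 and 0.243% of all 15229 genes tested did with limma-voom. At an unadjusted p under 0.05 there were 0, 7 and 12 members. The lowest adjusted p of a member was 0.488 for Xirp1 in tibialis against gastrocnemius (difference -2.34 ± 0.68) and 0.257 for Myom3 in tibialis against quadriceps (difference -4.66 ± 1.32). The calls made in 1 muscle are therefore not shown to be specific to it.

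Healthy knock-in muscle was compared with wild type to see whether the mutation alone goes with altered structural genes. No member passed in any muscle, with limma-voom, limma-trend or in the authors' deposited table, and 0.00706, 0.0362 and 0.496% of all genes tested passed with limma-voom. At an unadjusted p under 0.05 there were 6, 3 and 2 members. The lowest adjusted p was 0.522 for Lmod2 in gastrocnemius (-1.94 ± 0.47), 0.963 for Neb in quadriceps (-0.49 ± 0.17) and 0.386 for Actn2 in tibialis (-0.88 ± 0.24). In quadriceps 35 of the 39 estimates were below 0, with a median of -0.23 against 0.00 for all genes. These estimates come from the same libraries and are not separate observations. Summed skeletal fibre markers there were 131673 to 180207 CPM in healthy and 166037 to 201221 in wild-type libraries, which overlap. Their part in these estimates was not tested. Healthy and wild-type values did not overlap for 4, 1 and 2 members, and for 9.14, 3.86 and 4.03% of all genes. In tibialis these were Lmod3, with 129.5, 109.7, 151 and 102 CPM in healthy libraries, and Actn2, with 1000.5, 1302, 1459 and 1171 against 2134, 2008, 2535 and 2398 in wild type. In gastrocnemius they were Lmod2 and Mybpc1, lower in healthy libraries, and Smyd1 and Tmod1 (a tropomodulin of oxidative and cardiac muscle), higher, and in quadriceps it was Ttn, lower (6810.0, 7837, 7926 and 9158 against 10496, 13450.3, 10338 and 9658 CPM). Lmod3 and Actn2 are also the members called between wild-type tibialis and quadriceps, so both results use the same wild-type tibialis libraries. Those libraries hold the kidney tubule markers, whose part here was not tested.

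Sick was also compared with healthy knock-in muscle, where all mice carry the mutation. The sick libraries are the same as in the comparison with wild type, so that the 2 comparisons are not independent. In gastrocnemius 10 members rose and 4 fell, in quadriceps 6 rose and 4 fell and in tibialis 1 rose and 1 fell, where 14.1, 17.6 and 11.3% of all genes tested were called (7.17, 10.1 and 5.03% higher and 6.9, 7.51 and 6.3% lower). Groups did not overlap for 19, 8 and 9 members, and for 37.5, 24.0 and 28.9% of all genes. In gastrocnemius every member called against wild type was called again, and Actn2, Myoz2, Myom3 and Mybpc1 also rose and Trim55 also fell. In quadriceps Synm and Smyd1 were not called again, and Xirp1, Pdlim5 and Trim54 rose in addition. In tibialis Cmya5, Lmod3 and Myom3 were not called again, and Myoz3 fell in addition. The Lmod2 difference in gastrocnemius was 4.25 ± 0.54 (limma adjusted p = 0.00232) and that of Actn2 2.52 ± 0.45 (adjusted p = 0.00676), and both held in all 13 alternatives. Those of Flnc, Xirp1, Nrap, Myot and Myoz3 in gastrocnemius were 2.14 ± 0.37, 2.28 ± 0.41, 1.60 ± 0.27, 1.23 ± 0.24 and -3.40 ± 0.51, and held likewise. The gastrocnemius calls of Pdlim5, Synm, Smyd1 and Trim55 did not hold in every alternative. In quadriceps only the call of Nrap (1.82 ± 0.30, adjusted p = 0.00724) held in all 14 alternatives, and without sick replicate 2 the count of 10 members called fell to 1.
With limma-voom, Myoz3 was lower in all 3 muscles, at -3.40 ± 0.51, -2.32 ± 0.50 and -1.67 ± 0.50 (adjusted p = 0.00387, 0.0156 and 0.049). It was the only member called the same way in each, which the authors' deposited table does not share. In tibialis that call was lost without healthy replicate 1, 2, 3 or 4 or sick replicate 1 or 2, with median-of-ratios size factors, with low-count genes kept, with limma-trend, with library quality weights, with the replicate block or with only the 2 groups in the model (adjusted p = 0.0504 to 0.118), and in quadriceps without sick replicate 2 or with only the 2 groups in the model (adjusted p = 0.0612 to 0.064). Actn3 rose in tibialis (0.89 ± 0.24, adjusted p = 0.038), lost without healthy replicate 1, 2, 3 or 4 or sick replicate 1 or 4, with the replicate block or with only the 2 groups in the model (adjusted p = 0.0533 to 0.105).
The rises of Myom3 (3.18 ± 0.71), Mybpc1 (2.09 ± 0.55) and Myoz2 (3.68 ± 0.98) in gastrocnemius were lost without healthy replicate 1 or 3 or with low-count genes kept (adjusted p = 0.0588 to 0.102) for Myom3, without healthy replicate 1 or 3 or sick replicate 1 or 3 or with low-count genes kept (adjusted p = 0.0722 to 0.215) for Mybpc1 and without healthy replicate 1 or 3 or sick replicate 1, 2 or 3, with low-count genes kept, with the replicate block or with only the 2 groups in the model (adjusted p = 0.0584 to 0.169) for Myoz2. Healthy gastrocnemius libraries held 9.03, 42.3 and 8.38 CPM of Myom3 and 193, 824 and 607 of Myh2, and sick ones 145, 112 and 144 and 3876, 1678 and 2595.

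As a sum, the 39 members took 8.35 to 13.1% of all counts in a library, of which Acta1 alone took a large portion. Their share was 10.7 ± 0.771% in wild-type (mean ± SD, n = 4), 11.1 ± 0.706% in healthy (n = 3) and 11.5 ± 1.55% in sick gastrocnemius (n = 3). In quadriceps it was 11.6 ± 1.26, 10.3 ± 0.839 and 11.5 ± 1.45%, and in tibialis 9.57 ± 0.659, 9.88 ± 0.0903 and 10.1 ± 1.5%. Sick minus wild type came to 0.816, -0.0909 and 0.489 percentage points (two-sided exact permutation p = 0.40000, 0.914 and 0.571) and healthy minus wild type to 0.447, -1.36 and 0.317 (exact permutation p = 0.514, 0.114 and 0.40000). Adjusted over the 6 tests, p was 0.686 to 0.914, and the smallest p these group sizes allow is 0.0571 for 3 against 4 libraries and 0.0286 for 4 against 4. The summed level was therefore not shown to differ beyond the spread between libraries. Without Acta1 the sick minus wild-type difference was 1.31, 0.357 and 1.41 percentage points (unadjusted exact permutation p = 0.0571, 0.571 and 0.171), where the p in gastrocnemius is the smallest that 3 against 4 libraries allow. With Acta1 and leaving out 1 library, it ran from 0.0256 to 1.57 in gastrocnemius.

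In the authors' deposited table of fold changes, 7, 10 and 5 members had an adjusted p under 0.05 between sick and wild type. Of these, 7, 6 and 3 are also called here, all in the same direction. Only in the authors' deposited table, Myoz2, Pdlim5, Lmod2 and Actn2 passed in quadriceps, with log2 fold changes of 2.81, 0.71, 2.55 and 1.42, and Xirp2 and Actc1 in tibialis, with -1.09 and -3.59. Called here and not in the authors' deposited table were Lmod2 and Smyd1 in gastrocnemius, Tmod4, Xirp2 and Synm in quadriceps and Myom3 in tibialis, for which the authors' deposited table gives adjusted p of 0.0609, 0.074, 0.0624, 0.057, 0.0852 and 0.335. For Myom3 that table has a log2 fold change of -1.40, against -2.71 here. That table also gives 16, 9 and 3 members between sick and healthy knock-in, of which 14, 7 and 1 are called here. Its tibialis members are Actn3, Myot and Cmya5, all higher, and Myoz3 did not pass there. Myot was higher in all 3 muscles in that table, with log2 fold changes of 1.23, 1.08 and 0.60 (authors' adjusted p = 4.88e-07, 4.42e-06 and 0.0195).

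Other genes of the sarcomere, from lists fixed beside the members, were counted in the same way between sick and wild type, where 8.22, 10.5 and 8.44% of all genes tested rose and 6.52, 7.49 and 9.61% fell. Of 28 further Z-disc and costamere genes, 25, 26 and 25 were tested, of which 3, 3 and 4 rose and 1, 3 and 4 fell. Ankrd1, a stretch-responsive partner of titin, rose in gastrocnemius by 3.50 ± 0.36 (limma adjusted p = 0.00113), from 4.47 to 17.1 CPM in wild-type to 76.7 to 104 in sick libraries, and in quadriceps by 3.05 ± 0.38. Its relative Ankrd2 rose by 2.51 ± 0.72 in gastrocnemius and 3.47 ± 1.0047 in quadriceps, whereas Ankrd23 fell in all 3 muscles (-0.98 ± 0.23, -1.17 ± 0.22 and -1.11 ± 0.27), all as log2 fold changes. Csrp3, the muscle LIM protein of slow fibres, was called in opposite directions, 4.42 ± 1.06 in quadriceps and -3.85 ± 0.87 in tibialis, and Palld, an actin-bundling protein, fell in quadriceps (-1.09 ± 0.34). In tibialis Mypn (myopalladin) and Dmd (dystrophin) rose by 0.86 ± 0.16 and 0.93 ± 0.26, and Fhl1, a LIM protein, fell (-2.93 ± 0.47). Mypn also rose in gastrocnemius (0.84 ± 0.24).
Of 15 further thick filament genes, 2, 1 and 2 rose and 0, 0 and 3 fell. Myo18b, an unconventional myosin needed to build sarcomeres, rose in all 3 muscles (1.61 ± 0.28, 1.35 ± 0.31 and 0.9996 ± 0.30), and Mylk2, the kinase of the fast regulatory light chain, in gastrocnemius and tibialis (1.14 ± 0.31 and 1.07 ± 0.25). In tibialis Myl3, a slow light chain, and Myh2 fell (-5.09 ± 1.60 and -1.59 ± 0.46), with 34.8, 16.2, 141 and 9.53 CPM of Myl3 in wild-type and 16.2, 0.0397 and 1.45 in sick libraries, which overlap. Of 16 further thin filament genes 2 rose and 1 fell in quadriceps and none was called elsewhere. The slow troponins Tnnt1 and Tnnc1 rose (3.23 ± 0.95 and 3.77 ± 1.19) and Capzb, the barbed-end cap, fell (-0.53 ± 0.14).
Of 22 genes of sarcomere protein quality control, 3, 4 and 4 rose and 1, 4 and 6 fell. Trim63 (MURF1), a ubiquitin ligase of muscle atrophy, rose in all 3 muscles (2.91 ± 0.77, 2.83 ± 0.71 and 2.60 ± 0.75). Of its relatives given above, Trim55 fell in quadriceps, and Trim54 was not called, with positive estimates in all 3 muscles. Fbxo32 (atrogin-1), another ligase of atrophy, rose in gastrocnemius and tibialis (3.04 ± 0.80 and 2.80 ± 0.58). Hspb7, a small heat shock protein that binds filamin C, rose in quadriceps (2.69 ± 0.76) and Hspb3 fell there (-1.22 ± 0.28). Kbtbd13, a Kelch protein that binds actin, fell in all 3 muscles (-1.33 ± 0.28, -1.39 ± 0.39 and -1.68 ± 0.38). In tibialis the small heat shock proteins Cryab and Hspb6 fell (-2.44 ± 0.50 and -1.82 ± 0.27).
Of 22 regulators of sarcomere genes, 4, 3 and 5 rose and 2, 2 and 0 fell. Smyd4, a relative of Smyd1, rose in all 3 muscles (0.82 ± 0.20, 0.95 ± 0.23 and 0.87 ± 0.26), and Smyd2, which methylates a chaperone complex of titin, in quadriceps (1.16 ± 0.18). Abra, an activator of SRF signalling, rose in gastrocnemius (1.49 ± 0.37), where Mkl1, a coactivator of SRF, fell (-1.05 ± 0.29). Stac3, a part of excitation-contraction coupling, fell in gastrocnemius and quadriceps (-1.05 ± 0.27 and -1.44 ± 0.28). Mef2c fell in quadriceps (-1.72 ± 0.32), and Hdac5, a repressor of MEF2 factors, rose in gastrocnemius and tibialis (0.78 ± 0.15 and 0.73 ± 0.21). Of the other MEF2 factors listed, Mef2d was called higher in gastrocnemius and tibialis and Mef2a in tibialis. Of the 47 calls on these lists given with values here, 10 held in all 14 alternatives, namely Ankrd1, Myo18b and Hdac5 in gastrocnemius, Ankrd1, Smyd2 and Mef2c in quadriceps and Mypn, Fhl1, Hspb6 and Kbtbd13 in tibialis. The others of these 47 calls were lost in 1 to 11 of the 14 alternatives, with an adjusted p of up to 0.374.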

How the data were processed

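RNA-seq libraries of 3 muscles were grouped by muscle and state as the labels give them. The submitters' processing notes name cutadapt 1.18, TopHat2 2.1.1, HTSeq 0.6.0, DESeq2 1.22.1 and the build GRCm38. Raw counts per gene were used as deposited, and 6252 of the 54838 genes carry no value in that table and were left out. Log2 fold changes and adjusted p-values of the authors were read only where the authors' deposited table is named, and 32 deposited scaled per-library columns were not used.
Counts were scaled by TMM, filtered (10 counts in a library of median size, 15 summed) and tested with limma-voom (limma 3.58.1, R 4.3.3, prior count 0.5, robust) in 1 model per muscle, with Benjamini-Hochberg adjustment over all genes and a threshold of 0.05. The raw columns hold text for genes without a value, so limma-voom stands in for a quasi-likelihood count test. The fit was tested on simulated gastrocnemius counts with the same dispersion for every gene. That spread was not taken from these libraries, so the test does not show how the fit behaves under theirs. Alternatives were another scaling, no filter, limma-trend (prior count 2.0), quality weights, a replicate block, other sets of samples and leaving out each library.
All libraries of a group differed beyond counting noise. Same-numbered libraries of 1 state deviated together between muscles (r = 0.206 to 0.688), except between wild-type gastrocnemius and tibialis (lowest r = -0.196), and did not between states of 1 muscle. The labels do not say which libraries share a mouse. Members with values in every library were chosen by a fixed rule: up to 5 highest and 5 lowest called per muscle between sick and wild type, those called between wild-type muscles and the highest per length of each role, and of each other list up to 2 called each way. Others were named after their values were seen. The members and lists were chosen with earlier results of these data known. Up to 4.52% of the 50-base windows of a member (Klhl41) also occur in other genes.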

Additional observations from a re-analysis of the deposited data

Results flagged for a closer look

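In groups of 4 libraries, the highest or lowest value of 28 members was set against the rest, and in 4 of 140 groups it stood apart by more than the 95% value of Dixon's test. Chance alone gives about 1 in 20 groups. Mybpc2 was 6174 CPM in wild-type tibialis replicate 2 and 3888 to 4177 in the other 3 libraries. Tcap was 5615 CPM in wild-type tibialis replicate 3 and 1935 to 2492 in the others. Myot was 1033 CPM in wild-type quadriceps replicate 1 and 1304 to 1358 in the others. Trim55 was 79.9 CPM in healthy knock-in tibialis replicate 2 and 54.9 to 57.6 in the others.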

How the results depend on the processing

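Of 50 calls of members, 14 passed in every alternative run. None of these 50, or of the 47 calls on other lists given with values, reversed. Between sick and wild type, 9 members were called in gastrocnemius, but 4 with the replicate block and 5 with only the 2 groups in the model, and 3 to 11 leaving out 1 library each. In quadriceps 9 were called, 20 with library quality weights, 2 with the block and 0 to 18 leaving out 1 library, and in tibialis 3 to 5 leaving out 1 library. Between sick and healthy knock-in, the 10 quadriceps calls became 4 with no filter, 16 with quality weights, 5 with the block, 3 with only the 2 groups and 1 to 17 leaving out 1 library. The 2 tibialis calls became 1 with median-of-ratios factors or limma-trend, 4 with no filter, 7 with quality weights, 0 with the block or only the 2 groups, 5 with all 32 libraries in 1 model and 0 to 4 leaving out 1 library. The 14 gastrocnemius calls were 7 to 14 leaving out 1 library. Between healthy and wild-type tibialis, 1 member passed with only the 2 groups, and leaving out 1 library gave 0 in each muscle. In wild-type quadriceps against gastrocnemius, 2 passed with quality weights, 1 with the block and 0 to 2 leaving out 1 library, and in tibialis against gastrocnemius 2 with quality weights and 0 to 1 leaving out 1 library. For tibialis against quadriceps, the 2 calls became 1 with no filter, 16 with quality weights, 8 with the block, 4 with all 32 libraries and 0 to 7 leaving out 1 library. For the change differing between tibialis and quadriceps, 3 passed with quality weights and 0 to 1 leaving out 1 library.
Sick minus wild-type share of the members in quadriceps was 0.357 percentage points without Acta1, opposite in sign to the main value, and -0.706 to 0.738 leaving out 1 library. In tibialis it was -0.0434 to 1.34 leaving out 1 library, and the healthy minus wild-type share there was -0.0702 on TMM-scaled totals. The causes were not tested. The libraries of 3 or 4 per group and their spread limit what could be called, and states of 1 muscle share replicate numbers without deviating together.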
